A study of Mus musculus with 12 samples.

Results

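Out of 43626 genes counted in the files, the data concern 10 genes for scavenger and C-type lectin receptors of macrophages. These 10 were chosen by name, with earlier results of these data known. They are Msr1, Marco, Scarb1, Olr1, and Stab1 among the scavenger receptors, and Mrc1, Clec7a, Clec4d, Clec4e, and Clec4n among the C-type lectin receptors. They were measured by RNA-Seq in mouse BMDMs, which are macrophages grown in culture from bone marrow. There were 4 conditions of 3 libraries each, which were PBS, 3′SL at 100 μg/mL, LPS at 10 ng/mL, and LPS + 3′SL at the same doses, each for 6 hours. 3′SL (3′-sialyllactose) is a sialylated sugar of human milk, and the labels of the libraries call it HMO. LPS, a glycolipid of gram-negative bacteria, is the ligand of TLR4. No library carried a transgene or gene deletion by its label, and all were labeled as macrophages. The strain, age, and number of the donor mice are not given with these libraries, and the treatment field of the labels describes injections into mice, so doses and hours were taken from the study's text. The labels name no separate cultures or animals, so p-values measure only the spread between these libraries, which may be technical. A figure legend of the study speaks of biological duplicates for its RNA-Seq heatmaps and of n = 3 for other panels. It does not say which libraries these are.

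Scavenger receptors bind and internalize modified lipoproteins, dying cells, and microbes, and their uptake of oxidized LDL turns arterial macrophages into foam cells. C-type lectin receptors recognize sugars and lipids of fungi, bacteria, and damaged cells. Several of them signal through the adaptor FcRγ or their own cytoplasmic motif to the kinase Syk and the CARD9, BCL10, and MALT1 proteins, which leads to inflammatory cytokines.

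Between 20411741 and 26851890 reads per library were counted on genes, and all 10 receptor genes were among the 14308 genes with enough reads to test. Any pair of libraries of 1 condition was further apart than sampling noise allows (lowest chi-square 14.9 per gene). After condition means were removed, the libraries fell into 3 sets of 4 consecutive running numbers, each with 1 library of every condition. The labels do not name these sets, which are used here as library sets 1, 2, and 3, and values of 3 libraries are given in this order. Because the sets were found in these same counts, p-values of fits that include the sets may be too small. All 8 macrophage markers examined were detected, with summed levels of 17639.8 to 30044 CPM (reads of a gene relative to the scaled library size). Of the lymphocyte markers, Cd3e had no reads and the sum of all 6 stayed below 1 CPM. Stromal markers summed to 529 to 616 CPM in set 1 and 22.6 to 96.7 CPM in the other sets.

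Of the 10 genes, 5 lie on chromosome 6 in the GENCODE M21 annotation of GRCm38, in a pair of groups. Clec4n (chr6:123229843-123247021), Clec4d (chr6:123262111-123275265), and Clec4e (chr6:123281789-123289870) are neighbors in this order, with gaps of 15089 and 6523 bases. Clec7a (chr6:129461591-129472779) and Olr1 (chr6:129485244-129507165) lie 12464 bases apart. The others are Marco (chr1:120474538-120505024), Mrc1 (chr2:14229392-14332057), Scarb1 (chr5:125277087-125341094), Msr1 (chr8:39581685-39642673), and Stab1 (chr14:31139013-31168641). The annotation types Clec7a as a polymorphic pseudogene and the other 9 as protein coding. Exons of Stab1 overlap those of Nt5dc2 on the other strand, and whether the counting used the strand is not given in the sources used here, so the Stab1 counts are uncertain to that extent. At most 0.690% of the 50-base words in the transcripts of any of the 10 genes occurred in another gene.

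RefSeq promoter sequence (GRCm38.p6) was at hand for 7 of the 10 genes, and the 250 bases before the start site were searched on both strands for 5 motifs. These were a kB motif (GGG, any 5 bases, CC), a C/EBP motif (TTGC, any 2 bases, AA), an AP-1 motif (TGA, any base, TCA), a PU.1 motif (GAGGAAG), and an ISRE motif (GAAA, any 2 bases, GAAA), named for factors known to act in activated macrophages. Of 27025 promoter windows of this length, 1 per gene, 45.4% held the kB motif, 9.55% the C/EBP motif, 6.87% the AP-1 motif, 10.4% the PU.1 motif, and 3.04% the ISRE motif. The windows of Clec4e (chr6:123289872-123290121), Olr1 (chr6:129507166-129507415), and Marco (chr1:120505025-120505274) are printed because these 3 genes differed most between LPS and PBS. All 3 are on the minus strand and are written 5′ to 3′ along the gene, ending 1 base before the start site, with motif matches in capitals.
Clec4e: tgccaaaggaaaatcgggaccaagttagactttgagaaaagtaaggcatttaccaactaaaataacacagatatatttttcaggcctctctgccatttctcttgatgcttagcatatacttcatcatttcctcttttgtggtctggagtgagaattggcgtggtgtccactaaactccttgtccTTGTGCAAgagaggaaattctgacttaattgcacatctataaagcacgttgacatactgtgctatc
Olr1: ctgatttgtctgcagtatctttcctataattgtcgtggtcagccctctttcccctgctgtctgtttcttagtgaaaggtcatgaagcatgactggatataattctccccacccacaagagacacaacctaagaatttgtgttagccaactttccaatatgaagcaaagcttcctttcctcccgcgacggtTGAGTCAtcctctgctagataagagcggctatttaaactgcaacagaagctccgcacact
Marco: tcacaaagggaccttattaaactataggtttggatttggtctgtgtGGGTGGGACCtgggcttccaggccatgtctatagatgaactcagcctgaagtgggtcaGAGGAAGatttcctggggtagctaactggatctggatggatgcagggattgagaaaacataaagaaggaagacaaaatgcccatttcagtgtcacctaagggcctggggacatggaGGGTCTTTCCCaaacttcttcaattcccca
The Clec4e window held a C/EBP match, read on the opposite strand, from −66 to −59 relative to the start site. In the Olr1 window an AP-1 match lay from −60 to −54. The Marco window held a kB match from −204 to −195, a pair of kB matches on both strands that overlap from −30 to −20, and a PU.1 match from −146 to −140. Among the windows not printed, Clec4d held a PU.1 match and Mrc1 held 2 PU.1 matches and a kB match, while no letters of these motifs were found for Stab1 or Clec7a. Sequences for Msr1, Scarb1, and Clec4n were not used here. These matches describe letters and are no evidence of binding.

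In the PBS libraries the 10 genes spanned a wide range of levels. Per kilobase of exon, Stab1 (stabilin-1, a clearance receptor of macrophages and sinusoidal endothelium) and Clec4d (MCL, a partner of Mincle) were highest, with 281 ± 35.5 and 272 ± 114 CPM per kb (mean ± SD, n = 3), and their libraries overlapped. Mrc1 (the mannose receptor CD206) followed at 207 ± 43.8 and Msr1 at 102 ± 36.1 CPM per kb. Clec7a (dectin-1, the receptor for β-glucans) stood at 64.8 ± 20.1 and Clec4n (dectin-2, a receptor for α-mannans) at 28.5 ± 17.8 CPM per kb. The lowest were Scarb1 at 11.5 ± 0.707, Marco at 5.44 ± 0.198, Clec4e at 2.33 ± 1.05, and Olr1 at 1.01 ± 1.11 CPM per kb. Among all genes tested, the PBS level per kilobase of Stab1 lay at percentile 99.4 and that of Olr1 at percentile 26.5. With LPS the order changed, and Clec4d at 733 ± 220.0, Msr1 at 422 ± 64.0, and Clec4e at 353 ± 34.3 CPM per kb had the highest means. The plot of levels by condition gives every library.

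**Figure D1:**
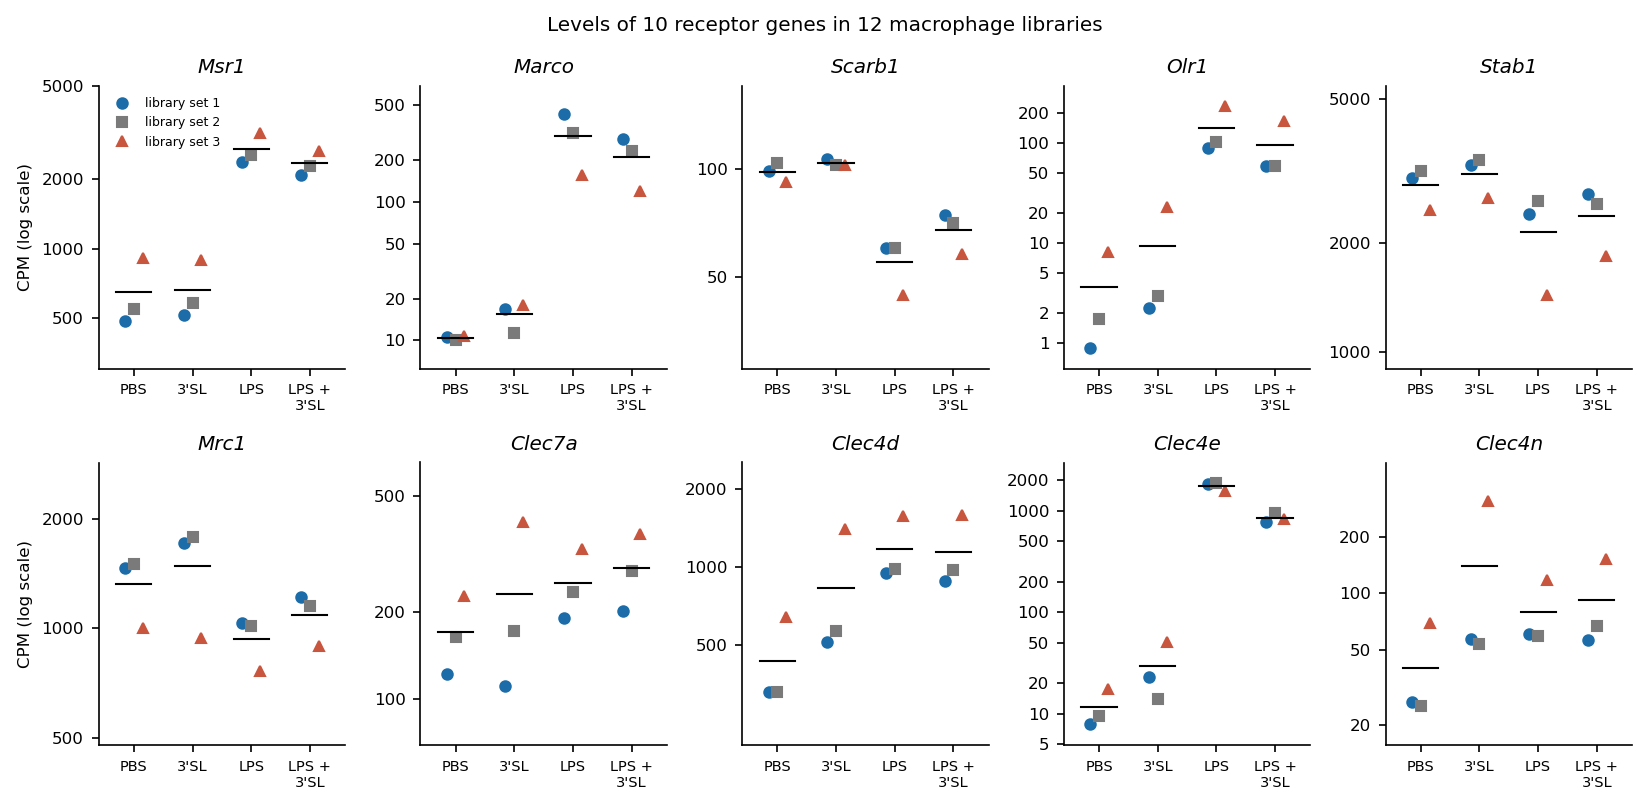
Levels of the 10 receptor genes in CPM on log axes, 1 panel per gene, with 1 point per library, the symbol giving its library set and the bar the mean of 3 libraries. Clec4e, Marco, and Olr1 lie far higher in all LPS libraries than in PBS, and Clec4e is the gene whose LPS + 3′SL libraries all lie below its LPS libraries.

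LPS against PBS asked how the receptors respond to TLR4 activation. Of the 10 genes, 5 rose (Clec4e, Olr1, Marco, Msr1, and Clec4d) and Scarb1 fell by edgeR's quasi-likelihood test (Benjamini-Hochberg adjusted p below 0.05 and a change of 1.5-fold or more), while Stab1, Mrc1, Clec7a, and Clec4n did not pass. By the same rule 38.5% of all genes tested passed, 18.3% higher and 20.2% lower. The libraries of LPS and PBS did not overlap for those 6 genes, as was so for 58.4% of all genes. The median log2 change of the 10 genes was 1.20, beside −0.061 over all genes tested. Scaling by total counts in place of TMM factors moved that median of all genes to −0.71. Clec4e, Olr1, Marco, and Msr1 then passed as higher and Scarb1, Stab1, and Mrc1 as lower. Of all 14308 genes tested, this scaling called 1535 higher and 6657 lower.

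Among the scavenger receptors, Marco, a collagenous receptor for bacteria and particles, was at 10.6, 10.0, and 10.8 CPM in the PBS libraries and 430.2, 317, and 155 CPM with LPS. Every LPS library was far above every PBS library, with set 3 the lowest of the 3. Marco rose 28.7-fold (log2 change 4.85 ± 0.43 SE, adjusted p = 8.35e-06, edgeR). Olr1, which encodes LOX-1, a receptor for oxidized LDL with a lectin-like domain, was at 0.890, 1.75, and 8.16 CPM with PBS and 89.9, 102, and 232 CPM with LPS. In both conditions set 3 was the highest, and no LPS library came near the PBS range. Olr1 rose 39.4-fold (5.30 ± 1.11 on the log2 scale, adjusted p = 0.00251, edgeR), and without the PBS library of set 3 the change was 108-fold. Msr1, scavenger receptor A, which takes up acetylated LDL, went from 487, 548, and 910.2 CPM with PBS to 2362, 2536, and 3136 CPM with LPS. It rose 4.13-fold (2.05 ± 0.28, adjusted p = 1.43e-04, edgeR), the smallest of the 3 increases.

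Scarb1 encodes SR-BI, the receptor that takes up cholesteryl esters from HDL. It was at 98.5, 104, and 92.0 CPM with PBS and 60.2, 60.1, and 44.6 CPM with LPS. All LPS libraries were below all PBS libraries, and Scarb1 fell 1.79-fold (−0.84 ± 0.13 on the log2 scale, adjusted p = 3.98e-04, edgeR). In bulk RNA, fewer cells of a kind and less RNA per cell cannot be told apart. Stab1 was at 3025, 3168, and 2476 CPM with PBS and 2405, 2608, and 1441 CPM with LPS, and the libraries overlapped. Its log2 change of −0.43 ± 0.24 did not pass (adjusted p = 0.169, edgeR), and with the library sets as a block it was −0.46 ± 0.11 (adjusted p = 0.00276, edgeR), under the 1.5-fold minimum.

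Among the C-type lectin receptors, Clec4e differed most. This gene encodes Mincle, the FcRγ-coupled receptor for mycobacterial cord factor and for a protein of dead cells. It was at 7.84, 9.37, and 17.5 CPM in the PBS libraries and 1846, 1859, and 1558 CPM with LPS. The LPS libraries lay close together, and Clec4e rose 152-fold (log2 change 7.24 ± 0.53, adjusted p = 2.77e-06, edgeR). Its neighbor Clec4d was at 329, 331, and 645 CPM with PBS and 951, 988, and 1578 CPM with LPS. Set 3 was the highest in both conditions, and the lowest LPS library was still above the highest PBS library. Clec4d rose 2.70-fold (1.43 ± 0.43, adjusted p = 0.0192, edgeR), which did not pass without PBS library 1, PBS library 2, or LPS library 3 (adjusted p = 0.0712, 0.0741, and 0.0751, edgeR) or with total counts (log2 change 0.76).

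The other 3 lectin receptors did not pass in this comparison. Clec4n, the third gene of the Clec4 neighborhood, was at 26.6, 25.2, and 69.5 CPM with PBS and 61.1, 59.2, and 118 CPM with LPS. Its PBS library of set 3 lay above the LPS libraries of sets 1 and 2, and the log2 change was 0.97 ± 0.70 (adjusted p = 0.287, edgeR). Within the sets Clec4n differed by 1.20, 1.23, and 0.76 on the log2 scale, and with the sets as a block it passed (1.09 ± 0.25, adjusted p = 0.00246, edgeR). That fit called 6 of the 10 genes higher and 1 lower. Of all 14308 genes tested it called 2939 (20.5%) higher and 3439 lower. Clec7a was at 122, 163, and 227 CPM with PBS and 191, 233, and 328 CPM with LPS. The libraries overlapped, and the log2 change of 0.55 ± 0.44 (adjusted p = 0.333, edgeR) turned to −0.12 with total counts. With the block it was 0.56 ± 0.18 (adjusted p = 0.0154, edgeR), under the 1.5-fold minimum. Mrc1, a marker of alternatively activated macrophages, was at 1464, 1500.4, and 999.7 CPM with PBS and 1033, 1011, and 764 CPM with LPS, a log2 change of −0.498 ± 0.26 that did not pass (adjusted p = 0.139, edgeR). With the block Mrc1 changed by −0.49 ± 0.10 (adjusted p = 0.00159, edgeR), also under the 1.5-fold minimum. Its PBS library of set 3 lay below the LPS libraries of sets 1 and 2, while within every set LPS was lower, with log2 ratios of −0.503, −0.57, and −0.39.

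Marker sums were compared between PBS and LPS as well. The 8 macrophage markers summed to 17639.8 to 20737 CPM with PBS and 26009.8 to 29473.2 CPM with LPS. The 7 dendritic cell markers summed to 51.3 to 86.3 CPM with PBS and 85.3 to 166 CPM with LPS, most of it Itgax, with Flt3, Ccr7, Clec9a, and Cd209a at 0 in at least 1 library. The 8 neutrophil and precursor markers summed to 139 to 547 CPM with PBS and 221 to 1015 CPM with LPS, and Ly6g stayed at or below 1.18 CPM. The part of these cells in the receptor levels was not tested.

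LPS was also compared in the presence of 3′SL, as LPS + 3′SL against 3′SL. Here Clec4e, Marco, Olr1, and Msr1 rose and Scarb1 fell by the same rule in edgeR, beside 29.2% of all genes, and the libraries of these 5 genes did not overlap, as for 46.6% of all genes. The 3′SL libraries held 22.8, 14.04, and 50.6 CPM of Clec4e, and the LPS + 3′SL libraries 780.0, 950.0, and 830.3 CPM. All libraries with LPS were far above those without, a change of 29.3-fold (4.87 ± 0.48 on the log2 scale, adjusted p = 2.64e-05, edgeR). Marco went from 16.9, 11.3, and 18.2 to 284, 233, and 119 CPM, 13.7-fold (3.78 ± 0.41, adjusted p = 5.22e-05, edgeR). Olr1 went from 2.23, 2.98, and 23.1 to 59.5, 59.2, and 167 CPM, 10.1-fold (3.34 ± 1.01, adjusted p = 0.0238, edgeR). The 3′SL library of set 3 was well above the other 3′SL libraries for Olr1 and for Clec4e. Without this library the changes were 36.7-fold for Olr1 and 46.9-fold for Clec4e, and Olr1 did not pass without 3′SL library 1, 3′SL library 2, or LPS + 3′SL library 3 (adjusted p = 0.0704, 0.0798, and 0.0803, edgeR).

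Msr1 went from 515, 580.5, and 889.7 to 2072, 2275, and 2638 CPM in this comparison, 3.52-fold (1.81 ± 0.27, adjusted p = 4.54e-04, edgeR). Scarb1 went from 106, 102, and 103 to 74.5, 70.6, and 57.9 CPM and fell 1.53-fold (−0.62 ± 0.13, adjusted p = 0.00372, edgeR). This change lay close to the 1.5-fold minimum, which it missed in DESeq2 (log2 change −0.58) and without LPS + 3′SL library 3 (−0.51 in edgeR). Clec4d was at 513, 567, and 1403 CPM with 3′SL and 882, 973, and 1588 CPM with LPS + 3′SL, and its log2 change of 0.47 ± 0.43 did not pass (adjusted p = 0.435, edgeR). With the library sets as a block it was 0.57 ± 0.13 (adjusted p = 0.00273, edgeR), under the 1.5-fold minimum. Clec4n and Clec7a did not pass either, with log2 changes of −0.61 ± 0.70 and 0.30 ± 0.44. The same held for Stab1 at −0.39 ± 0.24 and Mrc1 at −0.44 ± 0.26. With the block they were at −0.40 ± 0.11 (adjusted p = 0.00766, edgeR) and −0.41 ± 0.10 (adjusted p = 0.00613, edgeR), both under the 1.5-fold minimum. Scaling by total counts moved the median log2 change of all genes from −0.067 to −0.54, and Stab1 (−0.85, adjusted p = 0.0395, edgeR) and Mrc1 (−0.92, adjusted p = 0.0355, edgeR) then passed as lower beside the 5 genes above. Over all 14308 genes tested, 1350 were then called higher and 4856 lower. Without the 3′SL library of set 3, Clec4d (1.10) and Clec7a (1.01) passed as higher and Mrc1 (−0.66) as lower. The share of all genes called without this library was not counted, so these calls have no background.

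**Figure D2:**
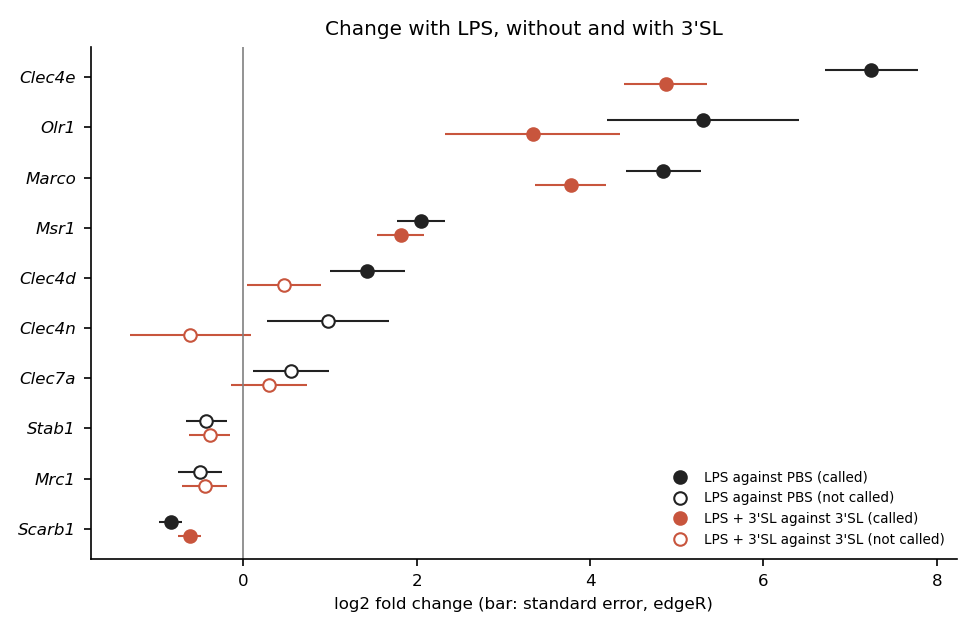
Log2 fold change with LPS for each of the 10 genes, without 3′SL (LPS against PBS) and with it (LPS + 3′SL against 3′SL), with bars of 1 standard error from edgeR and filled symbols for changes that passed. Clec4e is at 7.24 without and 4.87 with 3′SL, and Scarb1 lies below 0 in both.

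3′SL against PBS asked what the milk sugar does to resting macrophages. None of the 10 genes passed in edgeR or in DESeq2, which gave no adjusted p for Clec4n, and in edgeR no gene of the 14308 passed, so the share of all genes was 0%, beside 0.615% in DESeq2. At an unadjusted p under 0.05 in edgeR there were 2 of the 10, Clec4n and Clec4e, beside 10.1% of all genes. All 10 log2 changes were above 0, with a median of 0.496 beside 0.0013 over all genes, although with total counts Msr1 (−0.066) and Scarb1 (−0.0040) were below 0. The spread that edgeR shared over genes, a coefficient of variation, was 0.310 without the library sets in the fit and 0.133 with them. The sets were found in these same counts, so part of this fall can follow from how they were found. With the library sets as a block, Clec4d, Clec4e, and Clec4n passed as higher in edgeR, beside 1.98% of all genes called higher by that fit.

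These 3 genes are the neighbors on chromosome 6. Other Clec4 genes tested on that chromosome, named after their values were seen, did not pass. With the block their log2 changes were 0.58 (Clec4a1), 0.56 (Clec4a3), 0.43 (Clec4a2), 0.26 (Clec4b2), and −0.013 (Clec4b1). Clec4a1 and Clec4a2 had adjusted p of 0.0162 and 0.0130 (edgeR) but lay under the 1.5-fold minimum. Clec4n was at 26.6, 25.2, and 69.5 CPM with PBS and 57.6, 54.1, and 309 CPM with 3′SL. The 3′SL libraries of sets 1 and 2 lay below the PBS library of set 3, so the conditions overlapped, while within each set 3′SL was higher, by 1.12, 1.10, and 2.15 on the log2 scale. Clec4n had a log2 change of 1.79 ± 0.72 (adjusted p = 0.461, edgeR), and of 1.53 ± 0.25 with the sets as a block (adjusted p = 0.00954, edgeR). Clec4e was at 7.84, 9.37, and 17.5 CPM with PBS and 22.8, 14.04, and 50.6 CPM with 3′SL. The conditions overlapped, and within the sets 3′SL was higher by 1.54, 0.58, and 1.53 on the log2 scale. Its log2 change was 1.33 ± 0.42 (adjusted p = 0.358, edgeR), and 1.29 ± 0.34 with the block (adjusted p = 0.0489, edgeR). Even with 3′SL, Clec4e stayed far below its lowest LPS library. Clec4d was at 329, 331, and 645 CPM with PBS and 513, 567, and 1403 CPM with 3′SL, again overlapping, and higher by 0.64, 0.78, and 1.12 within the sets. Its log2 change was 0.93 ± 0.43 (adjusted p = 0.511, edgeR), and 0.86 ± 0.13 with the block (adjusted p = 0.00643, edgeR). When single libraries were left out, the log2 change in edgeR ranged from 0.42 to 2.44 for Clec4n, 0.63 to 1.76 for Clec4e, and 0.27 to 1.33 for Clec4d, and each was lowest without 3′SL library 3. The block fit called 4 of the 10 genes when set 3 was left out, adding Olr1, and none when set 1 or set 2 was left out. The share of all genes called without a set was not counted, so these numbers have no background. Libraries of sets 1 and 2 lay closer together (chi-square 14.9 to 20.1 per gene) than either did to set 3 (61.9 to 112).

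Olr1 was at 0.890, 1.75, and 8.16 CPM with PBS and 2.23, 2.98, and 23.1 CPM with 3′SL, higher within each set by 1.32, 0.76, and 1.497 on the log2 scale. Its log2 change of 1.39 ± 0.99 did not pass (adjusted p = 0.685, edgeR), nor did it with the block (adjusted p = 0.0783, edgeR). Marco was the gene among the 10 whose 3′SL libraries (16.9, 11.3, and 18.2 CPM) did not overlap the PBS libraries (10.6, 10.0, and 10.8 CPM), as was so for 17.5% of all genes. Its log2 change was 0.56 ± 0.38 (adjusted p = 0.665, edgeR). The conditions overlapped for the remaining genes. Stab1 was at 3285, 3397, and 2663 CPM with 3′SL, a log2 change of 0.11 ± 0.24. Mrc1 was at 1711, 1782, and 942 CPM, a log2 change of 0.16 ± 0.26. Clec7a was at 111, 172, and 409 CPM, a log2 change of 0.43 ± 0.44, and its excess lay in set 3, where 3′SL and PBS differed by 0.85 beside −0.13 and 0.073 in sets 1 and 2. Msr1 and Scarb1 were closest to no change, at 0.030 ± 0.27 and 0.080 ± 0.13.

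LPS + 3′SL against LPS asked what 3′SL does to activated macrophages. None of the 10 genes passed in edgeR, in DESeq2, or with the library sets as a block, beside 0%, 0.79%, and 1.45% of all genes. At an unadjusted p under 0.05 in edgeR there were 2 of the 10, Clec4e and Scarb1, beside 6.95% of all genes. The median log2 change of the 10 genes was 0.058, beside −0.0079 over all genes, with 5 above and 5 below 0.

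Clec4e was at 1846, 1859, and 1558 CPM with LPS and 780.0, 950.0, and 830.3 CPM with LPS + 3′SL. It was the gene among the 10 whose libraries did not overlap here, as was so for 12.7% of all genes. Within the sets Clec4e differed by −1.24, −0.97, and −0.91 on the log2 scale. The log2 change of −1.04 ± 0.41 had an unadjusted p of 0.0279 and did not pass after adjustment (adjusted p = 0.614 in edgeR, 0.122 with the block, 0.351 in DESeq2). Without set 3, the block fit called Clec4e (−1.09, adjusted p = 4.44e-04, edgeR) and Olr1 (−0.68, adjusted p = 0.00293, edgeR) as lower. Without set 1 or set 2 it called neither (adjusted p = 0.677 and 0.438 for Clec4e and 0.698 and 0.789 for Olr1, edgeR). How many of all genes these fits called was not counted. Scarb1 was at 60.2, 60.1, and 44.6 CPM with LPS and 74.5, 70.6, and 57.9 CPM with LPS + 3′SL, with its mean between those of LPS and PBS, a log2 change of 0.30 ± 0.13 (unadjusted p = 0.0435, adjusted p = 0.699, edgeR). Its lowest LPS + 3′SL library lay within the LPS range.

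Marco was lower with LPS + 3′SL than with LPS within each set, at 284, 233, and 119 against 430.2, 317, and 155 CPM, and Olr1 likewise, at 59.5, 59.2, and 167 against 89.9, 102, and 232 CPM. For both genes the conditions overlapped, and the log2 changes of −0.51 ± 0.37 for Marco and −0.57 ± 0.91 for Olr1 did not pass (adjusted p = 0.968 and 1, edgeR). Msr1 was at 2072, 2275, and 2638 CPM with LPS + 3′SL, a log2 change of −0.20 ± 0.27. Mrc1 was at 1215, 1154, and 890.5 CPM with LPS + 3′SL, a log2 change of 0.22 ± 0.26, and Stab1 at 2735, 2571, and 1839 CPM, a log2 change of 0.15 ± 0.24. The neighbors of Clec4e on chromosome 6 were at 882, 973, and 1588 CPM for Clec4d and 56.6, 67.1, and 152 CPM for Clec4n, log2 changes of −0.030 ± 0.43 and 0.21 ± 0.70. Clec7a was at 202, 276, and 372 CPM, a log2 change of 0.18 ± 0.44.

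**Figure D3:**
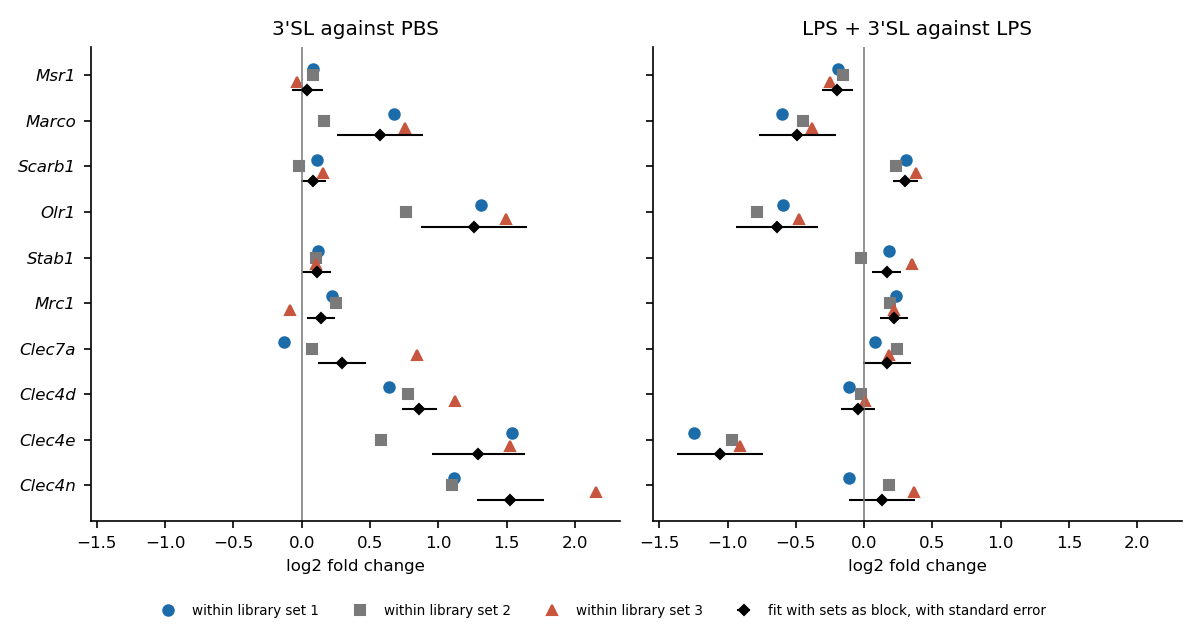
Log2 fold change with 3′SL for each of the 10 genes, without LPS (left) and with LPS (right), as the ratio within each library set (colored symbols) and from the fit with the sets as a block (black, bars of 1 standard error). For Clec4e the within-set changes are 1.54, 0.58, and 1.53 without LPS and −1.24, −0.97, and −0.91 with LPS.

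Whether the effect of 3′SL differed between LPS-treated and resting cells was tested as the interaction of both treatments. No gene of the 10 passed in edgeR, where 0% of all genes passed, and 1 of them, Clec4e, had an unadjusted p under 0.05, beside 6.09% of all genes. For Clec4e the log2 effect of 3′SL with LPS minus that without was −2.37 ± 0.59 (adjusted p = 0.579, edgeR). DESeq2 called Clec4e (adjusted p = 0.0280), beside 0.308% of all genes. With the library sets as a block, edgeR called Clec4e (−2.35 ± 0.46, adjusted p = 0.0308) and Clec4d (−0.90 ± 0.18, adjusted p = 0.0307), beside 1.55% of all genes. Neither passed with the block when set 1 or set 2 was left out (adjusted p = 0.404 and 0.197 for Clec4e and 0.368 and 0.283 for Clec4d, edgeR). The values for Clec4n, Olr1, and Marco were −1.58 ± 0.99, −1.96 ± 1.34, and −1.07 ± 0.53, none of them past the threshold in these fits. The value for Clec4n ranged from −2.23 to −0.22 when single libraries were left out, and was nearest 0 without 3′SL library 3. The 3′SL comparisons with and without LPS share no libraries, whereas LPS against PBS shares the PBS libraries with the one and the LPS libraries with the other.

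Set 3 stood apart for most of the 10 genes. In all 4 conditions its library was the highest of the 3 for Msr1, Olr1, Clec7a, Clec4d, and Clec4n, and the lowest for Stab1 and Mrc1, beside 16.8% and 15.1% of all genes. Relative to the mean of sets 1 and 2, Olr1 in set 3 was 6.17 times as high with PBS, 8.84 times with 3′SL, 2.42 times with LPS, and 2.81 times with LPS + 3′SL. Clec4n was 2.69, 5.53, 1.96, and 2.46 times as high in the same order, and Mrc1 0.675, 0.540, 0.748, and 0.752 times. Clec4e was 2.04 and 2.75 times as high in set 3 without LPS and 0.841 and 0.960 times with it, and Marco 1.04 and 1.29 times without LPS and 0.416 and 0.462 times with it. Of the variance left after condition means, the sets took 32.3% for Clec4e and 92.8% for Clec4d, the lowest and the highest of the 10, beside a median of 55.4% over all genes. Neutrophil and precursor markers summed to 302 to 1015 CPM in set 3, 139 to 221 in set 1, and 264 to 447 in set 2. Dendritic cell markers summed to 86.3 to 172 CPM in set 3 and 48.3 to 92.9 CPM in the other sets. Because the sets were found in these data, the differences between them are given with no test, and the part of other cells in them was not tested.

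**Figure D4:**
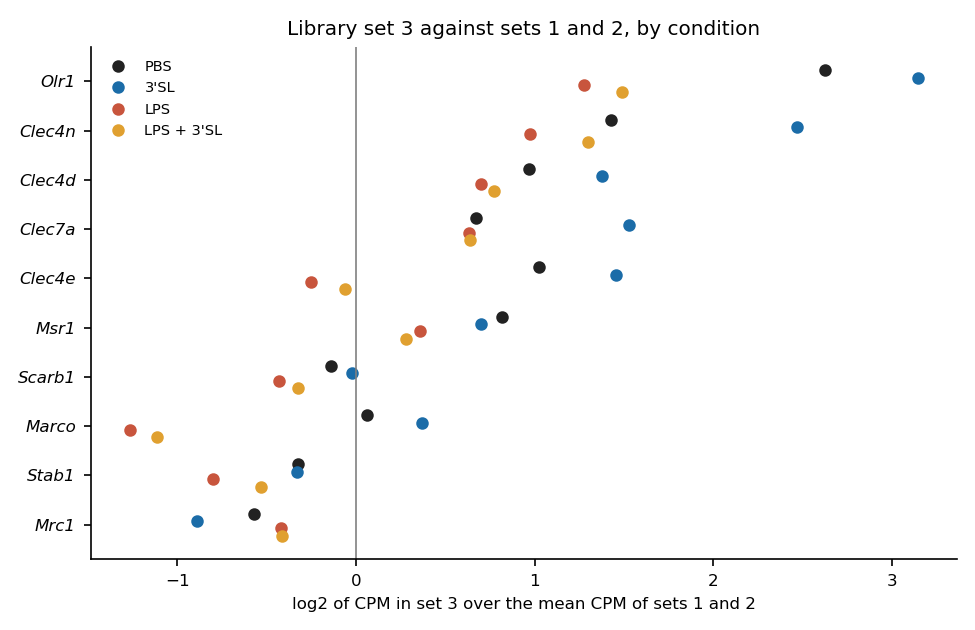
Level in library set 3 relative to the mean of sets 1 and 2, as a log2 ratio of CPM, for each of the 10 genes and each condition (colored points). Olr1, Clec4n, Clec4d, Clec7a, and Msr1 lie above 0 in all 4 conditions, and Mrc1, Stab1, and Scarb1 below 0.

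Other genes of the same families were examined as lists. Of 16 other scavenger receptor genes, 12 were tested, and in LPS against PBS 3 rose and 3 fell in edgeR, with a median log2 change of −0.36 beside −0.061 over all genes, of which 18.3% rose and 20.2% fell. With total counts 2 were called higher and 4 lower, with a median of −0.97 beside −0.71 over all genes. Of all 14308 genes, 1535 were then higher and 6657 lower. Cxcl16 (a chemokine and receptor for oxidized lipids, 2.75 ± 0.53), Scarf1 (2.19 ± 0.16), and Scarb2 (a lysosomal relative of Scarb1, 0.68 ± 0.11) rose. Stab2 (−1.06 ± 0.19), Cd163 (the hemoglobin-haptoglobin receptor, −0.91 ± 0.22), and Lrp1 (−0.87 ± 0.18) fell. Exons of Cxcl16 overlap Zmynd15 and those of Stab2 overlap Gm16268 on the other strand, so their counts are uncertain.

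Of 31 other C-type lectin genes, 23 were tested, and with LPS 11 rose and 3 fell, with a median log2 change of 1.11, beside 18.3% higher, 20.2% lower, and a median of −0.061 over all genes. With total counts 9 were called higher and 4 lower, with a median of 0.48, beside 1535 higher and 6657 lower of all 14308 genes. The largest increases were those of Cd69, an early activation marker, from 1.61 ± 0.611 to 808 ± 148 CPM (log2 change 8.97 ± 0.60, adjusted p = 1.58e-06, edgeR), Clec9a (3.47 ± 0.97), Pla2r1 (3.39 ± 0.43), and Clec4a1 (3.01 ± 0.42). Clec9a reached a mean of 0.900 CPM and Pla2r1 of 1.81 CPM with LPS, so both were scarce, and exons of both overlap another gene. Clec2i (−2.24 ± 0.58) and Cd93 (−1.19 ± 0.26) fell. Cd207 was also called lower, from 0.257 ± 0.277 CPM with PBS to no reads in any LPS library.

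All 20 genes for adaptors and kinases downstream of the lectin receptors were tested, and with LPS 11 rose and 4 fell, with a median log2 change of 0.94, beside 18.3% higher, 20.2% lower, and a median of −0.061 over all genes. For these genes total counts gave 7 higher and 6 lower and a median of 0.28, beside 1535 higher and 6657 lower of all 14308 genes. Src (4.91 ± 0.41), Malt1 (4.10 ± 0.25), and Lyn (2.04 ± 0.25) were among those that rose, and 18.3% of the words of Lyn occur in other genes. Syk (1.80 ± 0.13) and Fcer1g, the gene of FcRγ (0.98 ± 0.15), rose as well and are named after their values were seen. Vav2 (−1.76 ± 0.17), Inpp5d (−1.14 ± 0.22), Card9 (−0.87 ± 0.15), and Vav3 (−0.79 ± 0.10) fell. With 3′SL, no gene of the 3 lists passed in edgeR. In 3′SL against PBS, 0 scavenger, 2 lectin, and 4 adaptor or kinase genes had an unadjusted p under 0.05, beside 10.1% of all genes. DESeq2 called none of them, beside 0.615% of all genes. In LPS + 3′SL against LPS the numbers were 0, 1, and 3, beside 6.95% of all genes. There DESeq2 called 1 adaptor or kinase gene as lower, beside 0.79% of all genes. With the library sets as a block, Malt1 (−1.05, adjusted p = 8.33e-04, edgeR) was lower and Inpp5d, which encodes the phosphatase SHIP-1 (0.73, adjusted p = 8.33e-04, edgeR), higher in LPS + 3′SL than in LPS. That fit called 1.45% of all genes in this comparison. In the interaction it called 3 adaptor or kinase genes as lower, beside 1.55% of all genes called. Values without a set are not given for these genes. Malt1 means were 461 ± 57.3 CPM with LPS and 227 ± 65.8 CPM with LPS + 3′SL, and those of Inpp5d 166 ± 34.8 and 275 ± 52.5 CPM.

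For each of the 10 genes, the gene with the most similar log2 CPM over the 12 libraries was found by Pearson's r, as a description of libraries that share conditions and library sets. For Clec4e it was Rnf24 (r = 0.997), for Olr1 Slc15a3 (r = 0.996), for Msr1 Slfn8 (r = 0.997), and for Marco Tmem123 (r = 0.983). It was Ptpn12 for Clec4d (r = 0.991), Abcc1 for Clec4n (r = 0.978), and Nfe2 for Clec7a (r = 0.969). For Scarb1 it was Mlec (r = 0.989), for Stab1 Pccb (r = 0.969), and for Mrc1 Troap (r = 0.974).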

How the data were processed

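The data were RNA-Seq libraries of BMDMs, with 4 conditions of 3 libraries taken from the labels. The authors deposited 1 table of unnormalized read counts per library. The submitters' processing notes name FastQC, Trimmomatic, STAR, HTSeq, and DESeq2, and the genome build, annotation, and strand setting are not given in the sources used here. Of 43626 gene identifiers, 42548 matched GENCODE M21 (GRCm38). Summary lines of reads or alignments on no gene, 33.2% to 37.1% of the entries per library, were left out. In R 4.3.3, edgeR 4.0.16 was run with filterByExpr, TMM factors (0.700 to 1.30), and quasi-likelihood tests, fitting the 4 condition means to all 12 libraries. Benjamini-Hochberg adjustment covered every gene tested. CPM use TMM-scaled library sizes, and fitted changes carry their SE. Library sets were found by clustering residuals (mean correlation 0.60 within and −0.35 between sets). Within-set changes are ratios of single libraries, with 0.5 added to each count, and carry no error.

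The 10 genes, the lists, and the tests were chosen with earlier results of these data known. All 10 genes are named, as are up to 4 genes per list and direction with the largest change among those called in LPS against PBS, and the gene most correlated with each receptor. A gene that this rule would name is not reported here. Alternatives were DESeq2 1.42.0, its size factors or total counts in edgeR, all genes with at least 1 count, no fold minimum, only the conditions compared, the library sets as a block, that block with total counts, and leaving out each library. The block fit without each set was added after the data had been seen. The code was tested on simulated data with no library sets and a smaller spread than the real data. That test does not cover the block fit.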

Additional observations from a re-analysis of the deposited data

Results flagged for a closer look

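For 3 of the 10 genes, 3′SL went in opposite directions without and with LPS in every library set, higher than PBS in resting cells and lower than LPS alone in activated cells. Opposite directions in every set, in either order, were found for 1580 of the 14308 genes tested (11%). For Clec4e, the log2 effect of 3′SL with LPS minus that without was −2.37 ± 0.59, with 1.54, 0.58, and 1.53 within sets 1 to 3 without LPS and −1.24, −0.97, and −0.91 with LPS. For Olr1 the difference was −1.96 ± 1.34, from 1.32, 0.76, and 1.497 without LPS and −0.59, −0.78, and −0.48 with LPS. For Marco it was −1.07 ± 0.53, from 0.67, 0.17, and 0.76 and −0.60, −0.45, and −0.38. The test of the difference did not pass for any of them in edgeR (adjusted p = 0.579, 0.866, and 0.821). With the library sets as a block, Clec4e passed (adjusted p = 0.0308, edgeR) and Olr1 and Marco did not (0.0778 and 0.223), and without set 3 in that fit all 3 passed (2.58e-04, 0.00358, and 0.00216). Without set 1 or set 2, none of the 3 passed in that fit (adjusted p, edgeR, of 0.404 and 0.197 for Clec4e, 0.386 and 0.355 for Olr1, and 0.583 and 0.448 for Marco). The share of all genes that passed without a set was not counted.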

How the results depend on the processing

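The labels give no replicate numbers to pair libraries by, so the library sets found in the residuals were used as a block. For LPS against PBS, the number of receptor genes called lay between 5 and 8 over 23 alternatives. For 3′SL against PBS, 0 became 3 with the block, 2 with the block and total counts, and 4 with the block without set 3, and stayed 0 with the block without set 1 or set 2. For LPS + 3′SL against LPS, 0 became 2 with the block without set 3 and stayed 0 without set 1 or set 2. For LPS + 3′SL against 3′SL, 5 became 8 with the block and total counts and 3 to 8 when single libraries were left out. For the interaction, 0 became 1 in DESeq2, 2 with the block, and 5 with the block without set 3, and stayed 0 with the block without set 1 or set 2. For the fits without a set or a library, and for the block with total counts, the share of all genes called was not counted. The cause of these changes was not tested.

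Directions turned only for log2 changes that edgeR had not called. With total counts, and with total counts and the block, the log2 changes became −0.12 and −0.086 for Clec7a in LPS against PBS, −0.066 and −0.053 for Msr1 and −0.0040 and −0.0051 for Scarb1 in 3′SL against PBS, 0.049 and 0.047 for Clec4d in LPS + 3′SL against LPS, and −0.17 and −0.046 for Clec7a in LPS + 3′SL against 3′SL. In the last comparison Clec4d became −0.0023 with total counts, and in the interaction Clec7a became 0.040 with both. With the block without set 3, Clec7a became −0.045 in 3′SL against PBS and 0.22 in the interaction, and Clec4n 0.18 in LPS + 3′SL against 3′SL. Leaving out single libraries, the log2 changes that turned ranged in 3′SL against PBS from −0.31 to 0.76 (Clec7a), −0.0028 to 0.37 (Mrc1), −0.28 to 0.36 (Msr1), and −0.504 to 2.84 (Olr1). In LPS + 3′SL against LPS they ranged from −0.33 to 0.25 (Clec4d), −0.36 to 0.61 (Clec4n), −0.067 to 0.42 (Clec7a), and −0.072 to 0.31 (Stab1). In LPS + 3′SL against 3′SL they ranged from −1.18 to 0.73 (Clec4n) and −0.033 to 1.01 (Clec7a), and in the interaction from −0.58 to 0.49 (Clec7a), −0.15 to 0.22 (Mrc1), −0.56 to 0.082 (Msr1), and −0.18 to 0.20 (Stab1). The lowest count among the 10 genes was 31 reads, for Olr1.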
